A study of Mus musculus with 2 samples.

Results

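The genes described here are 10 genes of transforming growth factor beta (TGF-beta) signalling. They comprise the ligands Tgfb1, Tgfb2 and Tgfb3, the receptors Tgfbr1 and Tgfbr2, the latent TGF-beta binding protein family members Ltbp1 and Ltbp2, and the targets Tgfbi, Smad7 and Ctgf. They were taken by gene symbol from the non-control probes of the array, which carried 37074 gene names. All 10 genes were detected, as were 22007 genes in all; a gene counted as detected if the scanner software marked at least 1 of its probes as well above background on either array. The 10 genes had 20 probes, of which 13 were well above background on both arrays, 1 on the WT array alone and 6 on neither.

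The study asked how a lack of connexin 30 (Cx30), a gap junction protein of astrocytes encoded by Gjb6, alters the striatal response to MPTP, a neurotoxin that injures dopaminergic neurons. WT and Cx30 KO groups of 8-week-old male mice were compared. The strain was given as C57BL/6J for WT mice and as Cx30-LacZ for the homozygous Cx30 KO mice, in which the gene was disrupted in the germline and so in every cell. MPTP had been given to all mice of both groups as 4 doses of 20 mg/kg, spaced 2 h apart, and striata were taken on day 1 after the last injection. Each group was 1 pool of 2 mice, read on 1 single-colour array of 60-base probes, so no test was possible, and genotype, pool and array cannot be told apart. No array of mice without MPTP was analysed here, so every ratio compares the genotypes after MPTP and none is a response to MPTP.

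TGF-beta is secreted bound to its own propeptide and, through it, to a latent TGF-beta binding protein that tethers the complex in the extracellular matrix, from which integrins or proteases release the active ligand. Active ligand binds the type II receptor, TGFBR2, which recruits and phosphorylates the type I receptor, TGFBR1. That receptor phosphorylates SMAD2 and SMAD3, which enter the nucleus with SMAD4 and switch on target genes, among them the inhibitor SMAD7, which closes a feedback loop. In the brain the pathway is known for keeping microglia in their resting, tissue-specific state and for its part in vessel formation and in scar formation after injury.

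The signal of a probe is given below in the arbitrary units of the scanner software, with that software's own error of the spot. Ratios are those of Cx30 KO over WT after each array was divided by its own 75th percentile of signal (401.2 for WT and 381.8 for Cx30 KO), and they are given on the log2 scale with the error that the spot errors imply. These errors describe the reading of 1 spot and leave out the spread between mice. The brightest detected probe stands for a gene. A gene was called lower or higher by the limits of the study, a ratio of at most 0.66 or at least 1.5 together with a Z-score of at least 2 in size on the same side. The study does not say over which probes the Z-score was taken. Here it is the number of standard deviations between the probe's log2 ratio and the mean of the 1000 probes nearest to it in signal, which, like the scaling to the 75th percentile, is a choice made for the present calls. With a Z-score over all detected probes instead, Ctgf would be the only one of the 10 genes called. A call is a description of these 2 arrays and not a test. Signals of different probes cannot be compared, since probes differ in how strongly they bind.

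The array labels were first checked on the deleted gene. The brighter Gjb6 probe read 1788 ± 179 in WT and 111 ± 11.6 in Cx30 KO, which was 15.4-fold lower. The other Gjb6 probe was well above background in WT alone and was at least 4.33-fold lower in Cx30 KO. Gfap, the intermediate filament of reactive astrocytes, had log2 ratios of −1.62 and −1.82 at its probes. Markers of striatal neurons, such as Drd1 and Ppp1r1b, were detected on both arrays in 9 of 9 cases and none was called. The median log2 ratio of all detected genes was 0.03, with a standard deviation of 0.64, and no probe was saturated.

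Of the 10 genes, Ltbp1 and Tgfbr2 were lower in Cx30 KO and Ctgf was higher by these criteria, and the other 7 were not called. Among all detected genes, 746 were called lower (3.39%) and 522 higher (2.37%). By probe, 2 of the genes' probes were called lower and 1 higher, against 2.93% and 2.07% of all detected probes. The log2 ratios of the 7 uncalled genes ran from −0.48 to 0.23. The median over the 10 genes was −0.17, with 6 genes below 0 and 4 above.

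**Figure D1:**
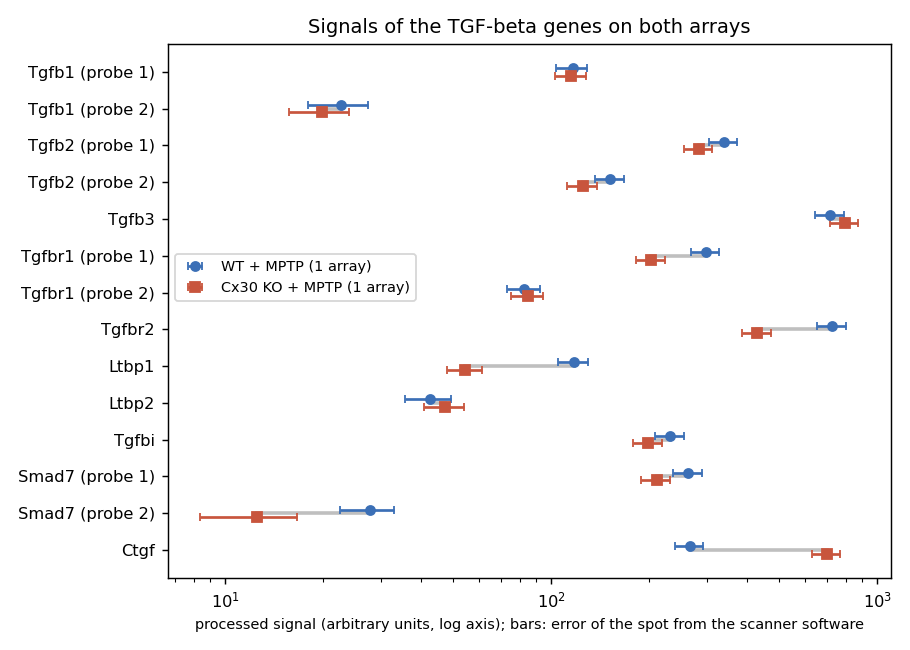
Processed signal (arbitrary units, log axis) of each detected probe of the 10 genes on the WT array (circles) and the Cx30 KO array (squares), with bars for the scanner software's error of the spot. Signals of the 2 arrays lie close together for the ligands, are lower in Cx30 KO for Tgfbr2 (728 against 428) and Ltbp1 (117 against 54.6), and are higher in Cx30 KO for Ctgf (266 against 699.9).

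None of the 3 ligands was called. Tgfb1, the ligand that activated microglia and infiltrating cells are known to make, read 116 ± 12.6 in WT and 115 ± 12.3 in Cx30 KO at its brighter probe, a log2 ratio of 0.06 ± 0.22. Its other probe, close to the lowest signals marked as above background, read 22.6 ± 4.71 and 19.8 ± 4.14, so both probes differed by less than their spot error. Tgfb2, known as a ligand of neurons and astrocytes, read 338 ± 34.1 in WT and 283 ± 28.6 in Cx30 KO, giving a log2 ratio of −0.18 ± 0.21, and its other probe gave −0.21. Tgfb3, a ligand with a similar receptor use, read 719 ± 72.0 and 794 ± 79.5, a log2 ratio of 0.22 ± 0.20. The ligands therefore stood on both sides of 0, and the size of each ratio was close to or below 1 spot error.

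The receptors were both lower in Cx30 KO at their brightest probe, and Tgfbr2 alone met the criteria. Tgfbr2, the ligand-binding receptor that starts the signal, read 728 ± 72.9 in WT and 428 ± 43.0 in Cx30 KO at its single probe, for which the array files give only the positions chr9:115996798-115996807 (mm9). This was a log2 ratio of −0.69 ± 0.20, or 1.62-fold lower, with a Z-score of −2.13. The call was a narrow one, since the ratio of 0.618 and the Z-score both lay just past their limits, and 4.93% of detected genes had a log2 ratio as low. It was not called with a Z-score over all detected probes or with ratio limits of 2 and 0.5. Tgfbr1, the kinase that Tgfbr2 recruits, gave different answers at its 2 detected probes. The brighter read 298 ± 30.1 in WT and 203 ± 20.7 in Cx30 KO, giving a log2 ratio of −0.48 ± 0.21 with a Z-score of −1.31. The dimmer read 82.8 ± 9.62 and 85.0 ± 9.54, a log2 ratio of 0.11 ± 0.23, so the probes of this gene differed by 0.59 on the log2 scale. For comparison, the pooled standard deviation of log2 ratios between detected probes of the same gene was 0.26 over 7147 genes.

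The dimmer Tgfbr1 probe is shown because its 60 bases were placed across 3659 bases of chromosome 4 and therefore join parts of separate exons, so that it reads spliced RNA. In the mm9 coordinates of the array it lies at chr4:47419898-47423556, and the brighter probe lies beyond it at chr4:47427421-47427480. The other 2 Tgfbr1 probes were not well above background on either array.
Tgfbr1 probe across the junction: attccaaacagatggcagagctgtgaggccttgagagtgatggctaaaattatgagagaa

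Ltbp1, which covalently holds latent TGF-beta and anchors it to matrix, was the member with the lowest ratio. Its single detected probe, at chr17:75790530-75790589 (mm9), read 117 ± 12.5 in WT and 54.6 ± 6.66 in Cx30 KO. The log2 ratio was −1.03 ± 0.23, or 2.05-fold lower, with a Z-score of −2.47, and 2.52% of detected genes had a log2 ratio as low. Its 3 other probes were not well above background on either array, so the call rests on 1 probe. It was not called with a Z-score over all detected probes, nor after normexp background correction, which gave a log2 ratio of −0.54. Ltbp2, a family member that sits on microfibrils but does not itself bind latent TGF-beta, read 42.4 ± 6.72 in WT and 47.4 ± 6.62 in Cx30 KO. That was a log2 ratio of 0.23 ± 0.30, within 1 spot error of 0.

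**Figure D2:**
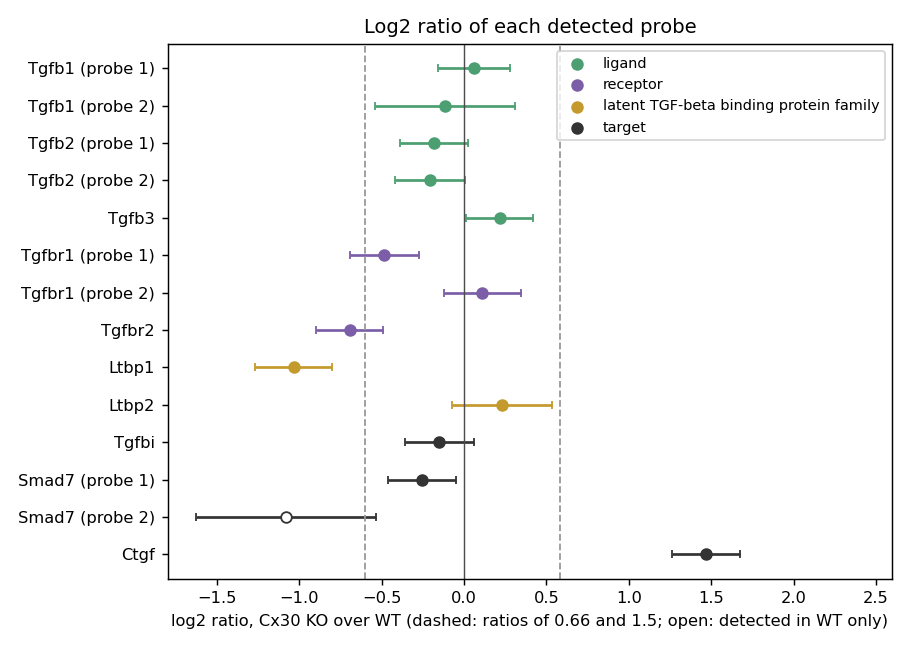
Log2 ratio of Cx30 KO over WT for each detected probe of the 10 genes, coloured by role, with bars for the error that the spot errors imply and dashed lines at ratios of 0.66 and 1.5; the open circle is a Smad7 probe detected in WT alone. Tgfbr2 (−0.69) and Ltbp1 (−1.03) lie left of the lower line, Ctgf (1.47) lies right of the upper line, and the 2 Tgfbr1 probes lie on opposite sides of 0 (−0.48 and 0.11).

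The promoters of the 2 genes called lower are shown with the SMAD box, the short motif CAGAC to which SMAD3 and SMAD4 bind, in capitals; GTCTG is the same motif on the other strand. They are the 250 bases before the annotated start in RefSeq (GRCm38.p6), 5′ to 3′ along the gene, that of Tgfbr2 at chr9:116175364-116175613 on the minus strand and the first of the Ltbp1 starts at chr17:75005279-75005528 on the plus strand.
Tgfbr2: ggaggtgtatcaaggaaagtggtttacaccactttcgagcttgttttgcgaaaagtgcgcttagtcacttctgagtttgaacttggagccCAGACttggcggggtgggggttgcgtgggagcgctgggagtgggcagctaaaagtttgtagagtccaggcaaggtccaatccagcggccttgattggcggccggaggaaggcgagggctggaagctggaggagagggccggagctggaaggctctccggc
Ltbp1: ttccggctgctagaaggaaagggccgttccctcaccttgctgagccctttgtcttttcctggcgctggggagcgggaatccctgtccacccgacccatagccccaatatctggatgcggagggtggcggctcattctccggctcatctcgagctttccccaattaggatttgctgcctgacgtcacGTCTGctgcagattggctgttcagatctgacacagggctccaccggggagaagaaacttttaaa

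Each of these windows held 1 CAGAC. Promoter sequence was matched for 7 of the 10 genes, with 9 windows in all, and 7 of the 9 windows held CAGAC on either strand, against 42.2% of 32851 mouse promoter windows of the same length. No window was matched for Tgfb3, Smad7 or Ctgf, so Tgfbi was the only target whose promoter was searched. Neither the palindromic SMAD element GTCTAGAC nor the AP-1 motif TGANTCA, with N for any base, was found in the 9 windows, and these were held by 0.167% and 6.75% of all windows. CAGAC is not contained in the palindrome, though neighbouring copies could share a base. Such a match is a description of letters and does not show binding.

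The 3 targets did not lie on one side of 0. Tgfbi, which encodes a secreted matrix protein named for its induction by TGF-beta, read 231 ± 23.5 in WT and 199 ± 20.2 in Cx30 KO, giving a log2 ratio of −0.15 ± 0.21. Smad7, the feedback inhibitor, read 264 ± 26.7 and 210 ± 21.4 at its brighter probe, a log2 ratio of −0.25 ± 0.21. Neither was called. The second Smad7 probe was dim, read 27.8 ± 5.23 in WT and 12.5 ± 4.12 in Cx30 KO where it was not well above background, and was at least 1.52-fold lower.

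Ctgf, whose current symbol is Ccn2 and which encodes a secreted matricellular protein, was the only one of the 10 genes called higher. Its single probe, at chr10:24318281-24318340 (mm9), read 266 ± 27.0 in WT and 699.9 ± 70.1 in Cx30 KO. The log2 ratio was 1.47 ± 0.21, a ratio of 2.76, with a Z-score of 4.47. Of all detected genes, 1.81% had a log2 ratio as high.

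Taken by role, the 5 ligands and receptors had a median log2 ratio of −0.18, with 3 genes below 0 and 2 above. The 3 targets had a median of −0.15, with 2 below 0 and 1 above. The difference of the medians, targets minus ligands and receptors, was 0.03, smaller than the median spot error of 0.21 of a single log2 ratio. The range within the targets, from Smad7 at −0.25 to Ctgf at 1.47, was wider than the gap between the roles.

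**Figure D3:**
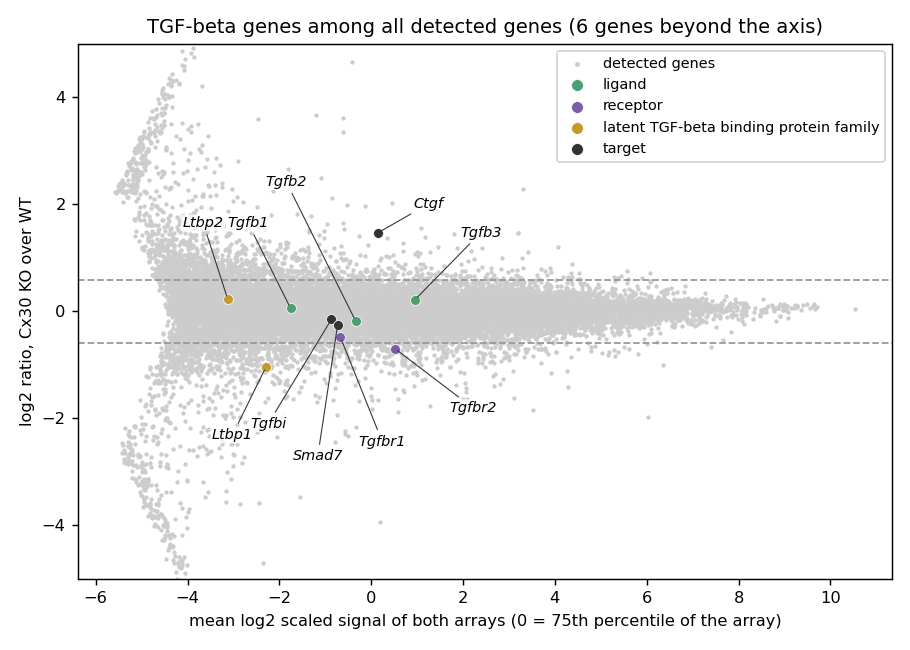
Log2 ratio of Cx30 KO over WT (vertical) against the mean log2 signal of both arrays, where 0 is the 75th percentile of the array (horizontal), for all 22007 detected genes (grey) and the 10 genes coloured by role; dashed lines mark ratios of 0.66 and 1.5, and 6 genes lie beyond the axis. Ctgf stands above the bulk of genes of similar signal, Ltbp1 and Tgfbr2 at its lower edge, and the other 7 genes within it; the arms at the left are genes near background on 1 array.

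Further genes of the pathway were taken from general knowledge of it, as 8 lists with 113 genes in all, the 10 genes included. Of the 104 detected, 11 were called lower (10.6%) and 2 higher (1.92%), against 3.39% and 2.37% of all detected genes, and their median log2 ratio was −0.08. Of the 11 genes called lower, 6 came from the list of 13 microglial genes described below, which shares genes with general microglial markers.

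Among genes that store and release latent ligand, 16 of 21 were detected, 13 of these lay below 0, the median was −0.19, and Ltbp1 alone was called. Ltbp3, another binding protein of latent TGF-beta, had a log2 ratio of −0.31 and Ltbp4 of −0.09. Itgav, the integrin chain shared by the TGF-beta-activating integrins, read 2929 in WT and 1913 in Cx30 KO, giving a log2 ratio of −0.54 with a Z-score of −2.01, and missed the call by its ratio. Its partner Itgb8 had a log2 ratio of −0.41, and other probes of both genes gave values up to 0.15 and 0.12. Nrros, which holds latent TGF-beta on microglia, had −0.23, whereas Lrrc32, which does so on other cells, had 0.32. Thbs1, Thbs2, Itgb6, Mmp2 and Mmp9 were not detected.

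All 5 receptors and coreceptors were detected, and Tgfbr2 alone was called. The coreceptor Tgfbr3, which presents ligand to Tgfbr2, had a log2 ratio of 0.31, the highest of these. The endothelial receptors Eng and Acvrl1 had −0.10 and −0.02.

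None of the 10 SMADs and cofactors was called, and their log2 ratios ran from −0.24 (Smad4) to 0.23 (Zfyve9, which brings SMADs to the receptor). Smad2 had 0.18 and Smad3 0.20, and the coactivator Crebbp had 0.21. None of the 12 feedback inhibitors was called either, with a range from −0.33 to 0.53. The highest was Ski, a repressor of SMAD-driven transcription, which read 8311 in WT and 11407 in Cx30 KO and had a Z-score of 2.32, but its ratio of 1.44 was below the limit. Skil, a relative of Ski that TGF-beta itself induces, had −0.11.

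Of 30 transcriptional targets, 25 were detected, with 1 lower, 2 higher and a median of 0.10. The median was −0.07 after normexp correction and −0.08 with no filter on dim probes, and 1 gene was higher with a Z-score over all detected probes. Timp1, an inhibitor of matrix metalloproteinases that many other signals also induce, read 1161 in WT and 298 in Cx30 KO, giving a log2 ratio of −1.89 and the lowest of the list. Cdkn1a, the cell cycle inhibitor p21 and also a target of p53, read 979 and 2108, a log2 ratio of 1.18, and 2.12 at its other probe. Ctgf was the other gene called higher. Classical targets of TGF-beta that were not called included Fn1 (−0.39), Col1a2 (0.17), Acta2 (0.18), Klf10 (0.12) and Pmepa1 (0.15). Snai1, Snai2, Lox, Thbs1 and Tnc were not detected.

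In the related activin and bone morphogenetic protein (BMP) branch, all 24 genes were detected, 2 were lower and none higher, with a median of −0.09 (0.03 when all probes of a gene were averaged). Neither call held with a Z-score over all detected probes or with ratio limits of 2 and 0.5. Id1, a target of BMP signalling, read 1547 in WT and 853 in Cx30 KO, giving a log2 ratio of −0.79. Its relatives Id3 and Id4 had −0.51 and −0.33 and were not called. Fst, the extracellular inhibitor of activin known as follistatin, read 135 and 65.1, a log2 ratio of −0.98.

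**Figure D4:**
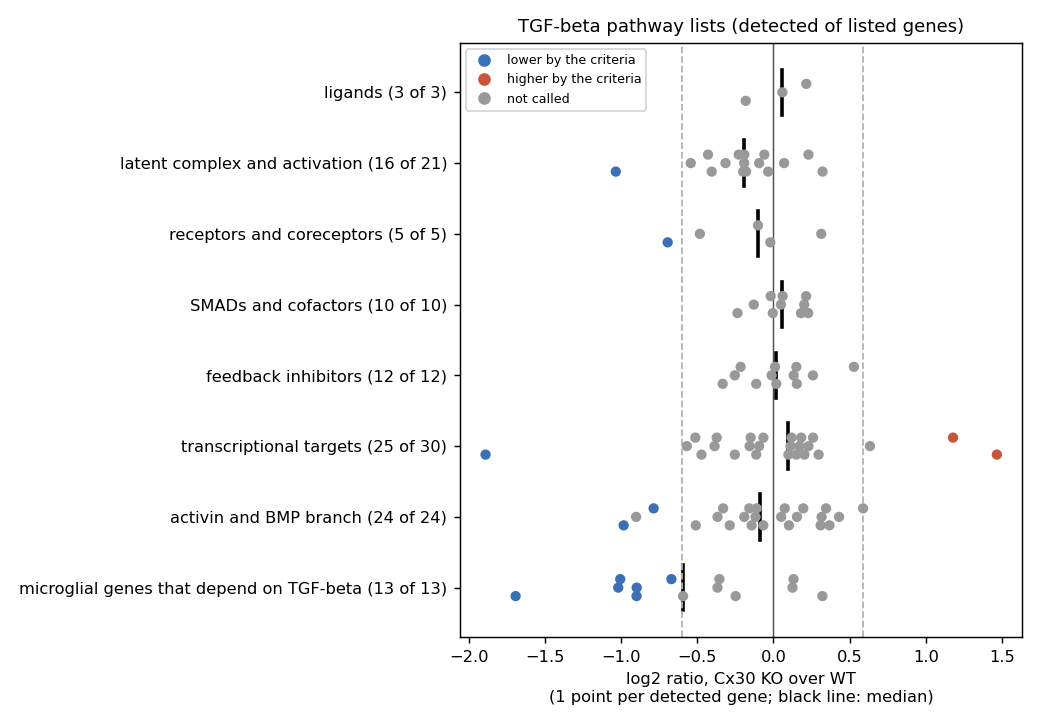
Log2 ratio of Cx30 KO over WT for each detected gene (points) of 8 lists of TGF-beta pathway genes, with the median of the list (black line), calls by the criteria in colour and dashed lines at ratios of 0.66 and 1.5. The medians of 7 lists lie between −0.19 and 0.10, and that of the microglial genes at −0.59 with 6 of 13 genes called lower.

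Microglial genes that are known to be lost when TGF-beta signalling to microglia is blocked had the lowest median of the 8 lists, −0.59. Of 13 genes, all detected, 6 were called lower, none higher, and 10 lay below 0. The number called lower was 1 with a Z-score over all detected probes and 3 with ratio limits of 2 and 0.5. P2ry12, a receptor for ADP that guides microglial processes, read 145 in WT and 42.8 in Cx30 KO, giving a log2 ratio of −1.69. Fcrls read 1049 and 497 (log2 ratio −1.01), and P2ry13, another ADP receptor, read 205 and 96.2 (−1.02). Tmem119, a membrane protein used to tell microglia from other macrophages, read 1114 and 569, a log2 ratio of −0.90, and the fructose transporter Slc2a5 read 190 and 96.8, also −0.90. Cx3cr1, the fractalkine receptor, read 5897 and 3527, a log2 ratio of −0.67, with −0.56 at its other probe. The list was not lower throughout. Sall1, a transcription factor of microglia that depends strongly on TGF-beta, had −0.25, Mertk had 0.12 and Olfml3 had 0.32 at its brightest probe, with −2.95 at another.

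Because whole striatum was measured, fewer cells of a type and less RNA per cell cannot be told apart. Markers of the cell types that carry these genes are given beside them. Of 8 general microglial markers, 8 had log2 ratios below 0 and 4 were called lower, with a median of −0.53, and their summed signal relative to the 75th percentile was 87.9 in WT and 64.0 in Cx30 KO. This list shares genes, among them Cx3cr1, P2ry12, Tmem119 and Csf1r, with the microglial genes above. On day 1 after MPTP the paper counted striatal cells stained for the microglial protein Iba1 and reported no significant difference between the genotypes. Aif1, the gene that encodes Iba1, was one of the 4 general markers called lower here. Its single detected probe gave 1991 for WT against 998 for Cx30 KO, or −0.93 on the log2 scale (Z-score −3.33). The paper's values were counts of stained cells, whereas those here are RNA of whole tissue, and the reason for the difference was not tested. From its arrays the paper also reported that microglial chemokine and cytokine genes did not differ between the genotypes after MPTP. That gene set was not examined here. Endothelial markers, of cells that also carry Tgfbr2, had a median of −0.41, 2 of 7 called lower (Flt1 and Vwf) and a summed signal of 21.9 and 17.5. Another probe of each of these genes lay above 0 (Flt1 0.52 and Vwf 0.23), as did Pecam1 (0.58) and Cldn5 (0.30). Of 6 markers of perivascular and other macrophages, 5 lay below 0 and 2 were called lower, with a median of −0.84 and summed signals of 0.920 and 0.529, and 3 of the 6 were well above background on both arrays. Mural cell markers had none of 7 called, 4 below 0, a median of −0.23 and summed signals of 18.4 and 20.1, of which Acta2, at a log2 ratio of 0.18, made up most. Those of fibroblasts and meninges, cells that make Ltbp1, had none of 5 detected called, a median of 0.17 and sums of 4.02 and 4.19. Of 7 astrocyte markers, Aqp4 alone was called lower, with a median of −0.07 over the list (summed signals 394 and 372). Its brightest probe had a log2 ratio of −0.95, and its 4 detected probes ran from −4.24 to 0.02. Oligodendrocyte markers had 5 of 7 called lower and a median of −0.73 (437 and 274). The part of cell numbers in the lower Tgfbr2 and Ltbp1 signals was not tested.

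**Figure D5:**
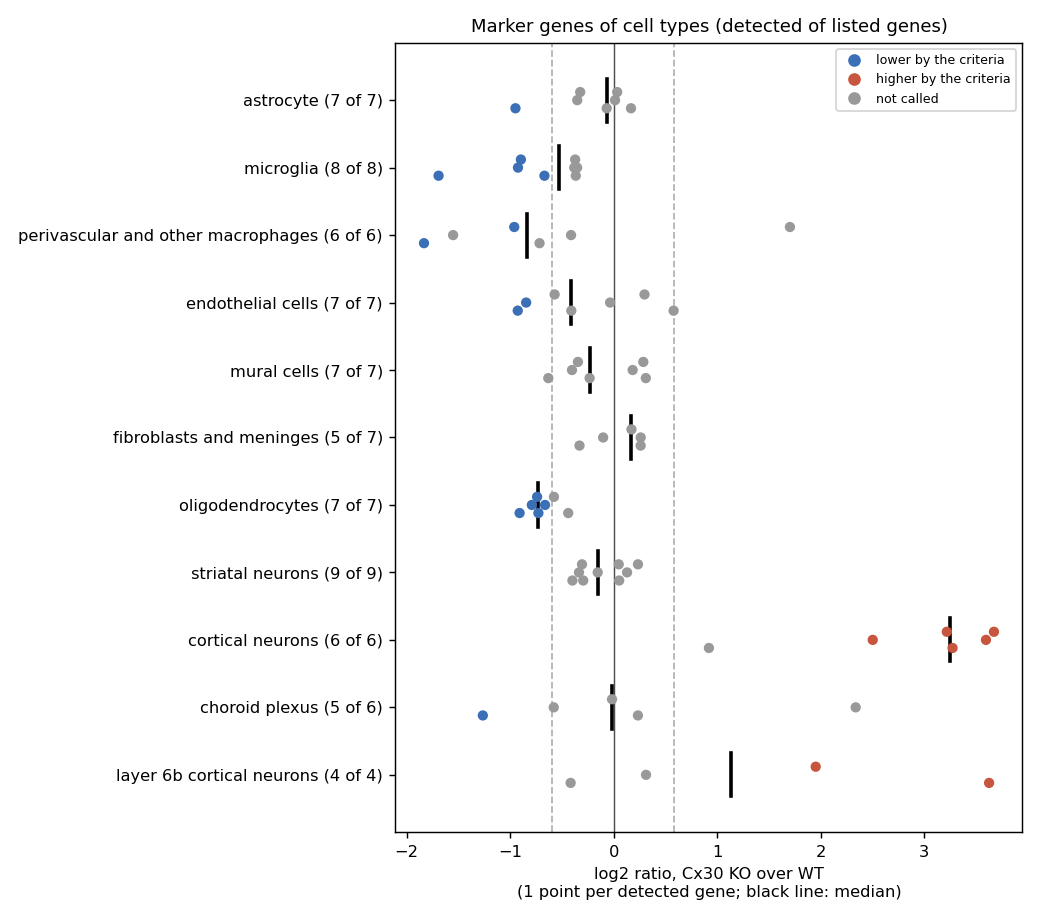
Log2 ratio of Cx30 KO over WT for each detected marker gene (points) of 10 cell types, with the median of the list (black line), calls by the criteria in colour and dashed lines at ratios of 0.66 and 1.5. A further row shows the genes of layer 6b cortical neurons, a list made after the Ctgf value was known. Microglial and oligodendrocyte markers lie below 0 (medians −0.53 and −0.73), striatal neuron markers around 0 (median −0.16), and cortical neuron markers above 0, with 5 of 6 called higher.

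Other markers were higher in Cx30 KO beside Ctgf. In the adult mouse forebrain Ctgf is known as a gene of the deepest cortical neurons, those of layer 6b. Of 6 markers of cortical excitatory neurons, which the striatum lacks, 5 were called higher in Cx30 KO, and their summed signal was 0.435 in WT and 3.64 in Cx30 KO. Neurod2 had a log2 ratio of 3.67, and Tbr1, a transcription factor of deep cortical layers, read 78.6 and 423. Slc17a7, Neurod6 and Emx1 were well above background in Cx30 KO alone, with Slc17a7, the cortical glutamate transporter, at least 12.1-fold higher. Among 4 genes of layer 6b, a list made after the Ctgf value was known, Nr4a2 read 74.2 in WT and 871 in Cx30 KO (log2 ratio 3.62) and Cplx3 read 36.5 and 134 (1.95). Both were called higher, whereas Nxph4 (0.31) and Moxd1 (−0.42) were not. The part of cortical tissue in the Ctgf ratio was not tested.

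Ctgf is also a target of the transcriptional coactivator YAP. Of 7 other genes of that response, a list likewise made after the Ctgf value was known, 6 were detected, with a median of −0.15. None was called higher, and Lats2 alone was called lower, with a log2 ratio of −0.72 and −0.27 at its other detected probe. Ajuba was well above background in Cx30 KO alone and was at least 1.21-fold higher. Cyr61, the close relative of Ctgf that is now named Ccn1, read 94.7 in WT and 80.9 in Cx30 KO, giving a log2 ratio of −0.16. The part of YAP in the Ctgf ratio was not tested.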

How the data were processed

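Total RNA of pooled striata was amplified, labelled with Cy3 and hybridised to 2 Agilent arrays. The deposited scanner files give, per spot, the intensity after the background subtraction of Agilent Feature Extraction (9.5.1.1 per the labels, 10.7.1.1 per the file headers). The deposited series table holds the authors' normalised signals, of which 99.991% lay within 1% of a quantile normalisation of these intensities (median 41.2 on both arrays); it served as an alternative.

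Control spots and spots with outlier flags were dropped. The log2 intensity minus the array's 75th percentile was averaged over the spots of a probe, which counted as well above background if at least 50% of its spots were so marked. Of 56605 probes, 32019 were so in WT and 32961 in the Cx30 KO sample. Signals so marked reached down to 19.8 and 17.4, respectively. A probe seen on 1 array is given as a bound, its signal against the higher of that floor and its own reading on the other array, after scaling. Symbols of 2052 probes were updated through RefSeq (GRCm38.p6), and probe positions are those of the files (mm9); their exon annotation was not used here.

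With 1 array for each genotype no test was run. Calls used the study's limits on ratio and Z-score. The probes over which the study took its Z-score are not given in the sources used here, and the window of the 1000 nearest probes was chosen for the present calls. The precision is limited by the number of arrays: the median standard deviation of log2 ratios between repeat spots of a probe was 0.03 (298 probes), and no spread between mice can be had. The genes and lists were chosen with earlier results of these data known. Named genes were the 10 genes, the called genes of each pathway list and, where none was called, its brightest genes; Gjb6 and Gfap as checks; and marker genes of cell types. Pathway genes named beyond these, such as Itgav, Ski, Sall1 and the uncalled targets, were chosen for their roles after their values were seen. Motifs were searched on both strands of the 250 bases before each start, not in the bases after it. The calling step was run on simulated data with known shifts set on brighter probes. Its pass mark covered only shifts larger than those of Tgfbr2 and Ltbp1, so it does not bear on their calls. Alternatives were other scalings, background correction with limma 3.58.1 (R 4.3.3), other filters, other probes and other limits. Other steps used Python 3.11.15, numpy 2.4.6 and pandas 2.3.3.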

Additional observations from a re-analysis of the deposited data

How the results depend on the processing

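No paired analysis was possible because each genotype had 1 array, and for the same reason no array could be left out. Ctgf was called higher in 11 of 11 alternatives, with log2 ratios from 1.25 to 1.47. Tgfbr2 was called lower in 9 of 11 (−0.74 to −0.60), and not with a Z-score over all detected probes or with ratio limits of 2 and 0.5. Ltbp1 was called lower in 9 of 11 (−1.08 to −0.54), and not with a Z-score over all detected probes or after normexp correction with quantile scaling. The number of the 10 genes called lower was therefore 0 with a Z-score over all detected probes, 1 with normexp and 1 with limits of 2 and 0.5, and the cause was not tested. The other 7 genes were called in no alternative. When all detected probes of a gene were averaged, Tgfb1 gave −0.03, Tgfbr1 −0.19 and Smad7 −0.67, and their other detected probes gave −0.12, 0.11 and −1.08, the last well above background in WT alone. With a Z-score over all detected probes, 446 genes were lower, and of the pathway genes 2 were lower and 1 higher. With limits of 2 and 0.5, 428 genes were lower and 340 higher, and 5 pathway genes were lower. With the ratio limits alone, 1367 genes were lower and 1589 higher, and 4 pathway genes were higher. With probes well above background on both arrays, 328 genes were higher. Of the called genes 41.2% were higher, against 52.0% with a Z-score over all detected probes and 53.8% with the ratio limits alone. The median log2 ratio of all genes ran from −0.07 to 0.04. Genes with 1 probe (4 of the 10) have no second reading.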
